A study of Mus musculus with 48 samples.

Results

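The Wnt receptors and targets described here are 10 genes: the receptors Fzd4 and Fzd6, the co-receptors Lrp5 and Lrp6, the scaffold Axin1, its inducible relative Axin2, the transducer Ctnnb1, the inhibitor Nkd1, and the nuclear factors Lef1 and Tcf7l2. They were found by name among the probes that are not controls, which gave 16 probes of 10 genes out of 55681 probes carrying 34797 gene names. The arrays measured RNA from the brains of newborn male mouse pups, in 8 groups of 6 arrays, 48 in all. The pups received PBS, the saline vehicle, or 10 ng/g of interleukin-1β (IL1B) by intraperitoneal injection from P1 to P5, a model of systemic inflammation around birth. From the same brains O4+ cells and CD11B+ cells, which are microglia and other myeloid cells, were taken one after the other on magnetic columns. The O4+ cells carry the O4 surface antigen and are late oligodendrocyte progenitors and immature oligodendrocytes. Their proportions differ between P5 and P10 by the study's account. Both fractions were collected at P5, 2 h after the last injection by the labels, or at P10. Both fractions at both ages therefore exist with PBS and with IL1B: O4+ P5 PBS, O4+ P5 IL1B, O4+ P10 PBS, O4+ P10 IL1B, and the same 4 for CD11B+ cells. The labels name Swiss mice and 6 per group, whereas the methods name the OF1 stock, a longer delay after the last injection, and brains pooled before sorting. No genetic change is named for any group. The column selects on a surface antigen and leaves some other cells in each fraction, so each value below is a level in a fraction.

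In canonical Wnt signalling a secreted Wnt ligand binds a Frizzled receptor and an Lrp5 or Lrp6 co-receptor on the target cell. This stops the destruction complex, which Axin1 holds together, from marking β-catenin (the product of Ctnnb1) for degradation, and β-catenin then enters the nucleus and activates genes with factors of the TCF/LEF family such as Lef1 and Tcf7l2. Axin2 and Nkd1 are themselves induced by the pathway and restrain it, so their transcripts are commonly read as its output. In the developing brain the pathway acts in at least these places: in oligodendrocyte progenitors, where it affects the timing of differentiation and where Tcf7l2 marks cells about to myelinate, and in the endothelial cells of brain vessels, where Lef1, Tcf7, Fzd4, Fzd6 and Apcdd1 belong to the programme of the blood-brain barrier.

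The values below come from 60-base probes. The opening 30 bases of those on which the results turn are shown because 2 probes of one gene need not read the same transcripts. All are written 5′ to 3′ on the transcript's strand, in lower case, and are read from the scanner files with mm9 positions that cover the whole probe. Lef1 is read by a probe at chr3:130926200-130926259 on the plus strand and by a second one whose ends lie 18162 bases apart on the genome, at chr3:130907851-130926012. Both Lef1 sequences are given because they gave the same result from different stretches.
Lef1, brighter probe: actgcaagcgccgacttccaaaaagaaagc
Lef1, second probe: gtacaggtcccagaatgacagctgcctaca
Fzd6 has a single probe at chr15:38869107-38869166, Fzd4 a single probe at chr7:96557478-96557537, and the brighter Nkd1 probe lies at chr8:91116160-91116219, all on the plus strand.
Fzd6: ggccgagctgtcgattccccttttaagtgt
Fzd4: acacacgtaaggtatccagtggatttctct
Nkd1, brighter probe: cactaatatttagccagccttcatgtagaa
The Axin2 probes are shown because they disagreed on some arrays; they lie at chr11:108812034-108812093 and chr11:108803927-108803986, on the plus strand.
Axin2, brighter probe: cttggtacaataattattgtaattaagaga
Axin2, second probe: tcctgggggaacagattattattgctactc
Tcf7l2 was read by 3 probes, the brightest at chr19:55817272-55817331 and the others well downstream on the same strand.
Tcf7l2, brightest probe: agacggcctccgcctcgctccgaaagtttc
Tcf7l2, second probe: caaaatactacgagctggcccggaaggaac
Over the 24 O4+ arrays the probe pairs of Lef1 and Nkd1 moved together, with Pearson's r of 0.956 and 0.916. The brightest and second Tcf7l2 probes did so as well, at 0.96. The Lrp6 pair reached 0.401 and the Axin2 pair -0.191. Unless another probe is named, a gene is given by its brightest probe, and "level" means log2 signal after quantile normalization over the 24 arrays of one cell type. A gene was called changed where limma's adjusted p (Benjamini-Hochberg over 55681 probes) was under 0.05 and the ratio of the group medians was over 1.5 either way.

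All members except Axin2 gave signal well above background on each of the 48 arrays (the brighter Axin2 probe did on 22 of 24 O4+ arrays and 3 of 24 CD11B+ arrays). The fractions carried their defining markers. Sox10, a factor of the oligodendrocyte lineage, was 5.33 higher on the log2 scale in O4+ than in CD11B+ cells of PBS pups at P5 and 4.78 higher at P10, and 12 of 14 microglial genes were called lower in O4+ cells at both ages. Itgam, which encodes CD11B itself, was the exception: its brightest probe, which contains a CA repeat, had group medians of 15.56 to 16.87 in O4+ and 13.85 to 14.73 in CD11B+ cells, whereas its other 2 probes had higher medians in every CD11B+ group than in any O4+ group. The arrays were scanned on 9 slides, and P5 and P10 arrays shared none, so that age and slide cannot be told apart. CD11B+ P5 IL1B replicate 3 and CD11B+ P5 PBS replicate 5 stood apart, with 15.1% and 13.6% of well-measured probes over 1 log2 unit from the rest of their group, against a median of 1.79% over arrays outside slide 5. The calls after IL1B in CD11B+ cells at P5 are also given without them. Other results that use these arrays are not given gene by gene without them.

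**Figure D1:**
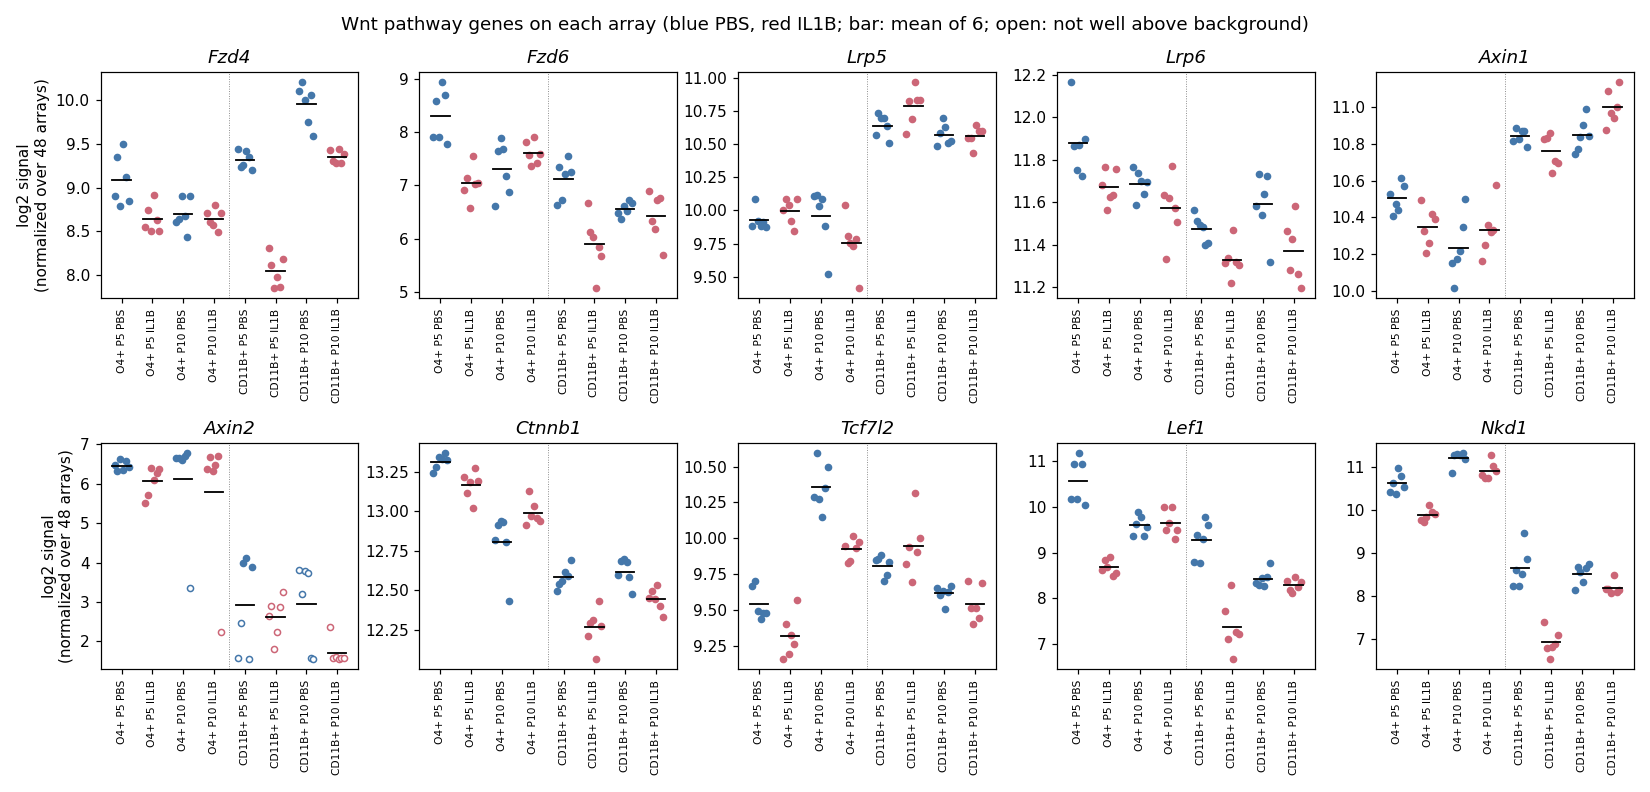
Log2 signal of each of the 10 genes on every array, normalized over all 48 arrays, in the 8 groups; blue points are PBS arrays, red points IL1B arrays, open points arrays not well above background, and bars the mean of 6 arrays. Lef1, Fzd6 and Nkd1 have lower red than blue points at P5 in both cell types, and Axin2 lies near background in CD11B+ cells.

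The main question was whether systemic IL1B changed these genes in O4+ cells. At P5, 3 of the 10 were lower after IL1B: Lef1, Fzd6 and Nkd1. None was called higher. Over all probes 1.49% were called lower and 3.43% higher, and the median change was -0.31 for the 10 genes and -0.04 for all probes.

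Lef1, a nuclear factor of the TCF/LEF family and itself a pathway target, had a lowest, median and highest level of 10.19, 10.66 and 11.24 in O4+ P5 PBS and of 8.73, 8.88 and 9.11 in O4+ P5 IL1B. Every IL1B array was below every PBS array, by more than a full log2 unit at the closest. The change was -1.77 ± 0.19 (SE, n = 6 per group; -3.54-fold by medians; adjusted p = 8.57e-05), and the second probe gave -2.07 ± 0.21 (adjusted p = 7.51e-05). Within the 2 slides that held both treatments, with 1 IL1B array on each against 4 and 2 PBS arrays, the difference was -1.85 and -1.40.

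Fzd6, a Frizzled receptor of canonical and planar-polarity signalling, ranged from 8.02 through a median of 8.49 to 9.15 in PBS and from 6.85 through 7.30 to 7.81 in IL1B arrays. The groups were again separate. Its change was -1.23 ± 0.22 (SE; -2.33-fold; adjusted p = 0.00282). Nkd1, which binds Dishevelled and is a target that restrains the pathway, ranged from 10.51 through 10.70 to 11.08 in PBS and from 9.91 through 10.05 to 10.28 in IL1B arrays. That drop was smaller, at -0.68 ± 0.10 (SE; -1.57-fold; adjusted p = 0.000887), yet the groups did not overlap, and the second Nkd1 probe changed by -0.76.

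The other receptors and transducers moved less. Fzd4, the Frizzled that also serves as the receptor for Norrin, changed by -0.43 ± 0.12 (SE; adjusted p = 0.0351), under the fold threshold at -1.33-fold. Of the co-receptors, Lrp6 changed by -0.20 (adjusted p = 0.0699) at its brighter and by -0.28 (adjusted p = 0.0145, under the fold threshold) at its second probe, and Lrp5 by 0.07 (adjusted p = 0.429). Ctnnb1 changed by -0.15 (adjusted p = 0.0457) and Axin1 by -0.14 (adjusted p = 0.0865). Tcf7l2 changed by -0.21 (adjusted p = 0.0636) at its brightest probe, and its second probe by -0.36 (adjusted p = 0.00702), both under the fold threshold. Axin2 was -0.40 ± 0.15 (SE; adjusted p = 0.101) by the brighter probe, with arrays from 6.60 to 6.89 in PBS and from 5.77 to 6.68 in IL1B. By the second probe it was -0.71 ± 0.19 (SE; -1.48-fold; adjusted p = 0.0248), with arrays from 5.47 to 5.83 and from 4.03 to 5.39, so that this probe did not overlap between groups and the brighter one did. Both Axin2 values stayed under the fold threshold.

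Genes of brain vessels fell in the same O4+ arrays. Of 21 endothelial markers, all of them well above background on every O4+ array, 13 were called lower and 0 higher after IL1B at P5, with a median change of -0.80. Among them Sox18 and Sox17, transcription factors of endothelial cells, changed by -2.25 and -1.46, Egfl7 by -1.51, Cldn5, the tight-junction protein of the barrier, by -1.27, Cdh5 by -0.80 and Pecam1 by -0.45 (adjusted p = 0.0571, not called). The mean level of the list (here and below on the scale normalized over 48 arrays) lay between 10.384 and 11.451 in O4+ P5 PBS and between 9.923 and 10.495 in O4+ P5 IL1B arrays. No defining endothelial marker was near background in any O4+ group. Myeloid genes went the other way: 7 of 14 microglial markers were called higher (list mean 13.002 to 13.511 in PBS, 13.91 to 14.311 in IL1B), as were 8 of 9 neutrophil and monocyte markers (3.929 to 4.765 in PBS, 6.054 to 9.177 in IL1B). The fraction's own lineage genes were lower too. The list means of oligodendrocyte lineage genes (15.077 to 15.265 in PBS, 14.704 to 14.988 in IL1B) and of progenitor genes (15.415 to 15.607 and 15.163 to 15.344) did not overlap between treatments, and 1 of 5 and 1 of 4 were called lower, Nkx2-2 (-0.59) and Bmp4 (-0.71). Mural markers, of pericytes and smooth muscle, had 0 of 8 called in either direction and a median change of -0.70. The part of these shifts in the results for Lef1, Fzd6 and Nkd1 was not tested, and in a bulk fraction fewer cells of a type and less RNA per cell cannot be told apart.

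The patterns most like Lef1 over the 24 O4+ arrays were, among 13773 genes, those of Nos3 (Pearson's r = 0.977), She (0.971), Egfl7 (0.968), Hspa12b (0.962) and Tfrc (0.96). Fzd6 stood at rank 44 with 0.886. The closest to Fzd6 were Ablim1 (0.97) and Ocln, a tight-junction gene (0.963), with Tcf7 at 0.949. These coefficients describe arrays that share groups, slides and cell composition. In CD11B+ cells Nos3 was also the closest to Lef1 (0.94, 13197 genes), and Tpd52l1 (0.906) and Cav2 the closest to Fzd6.

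**Figure D2:**
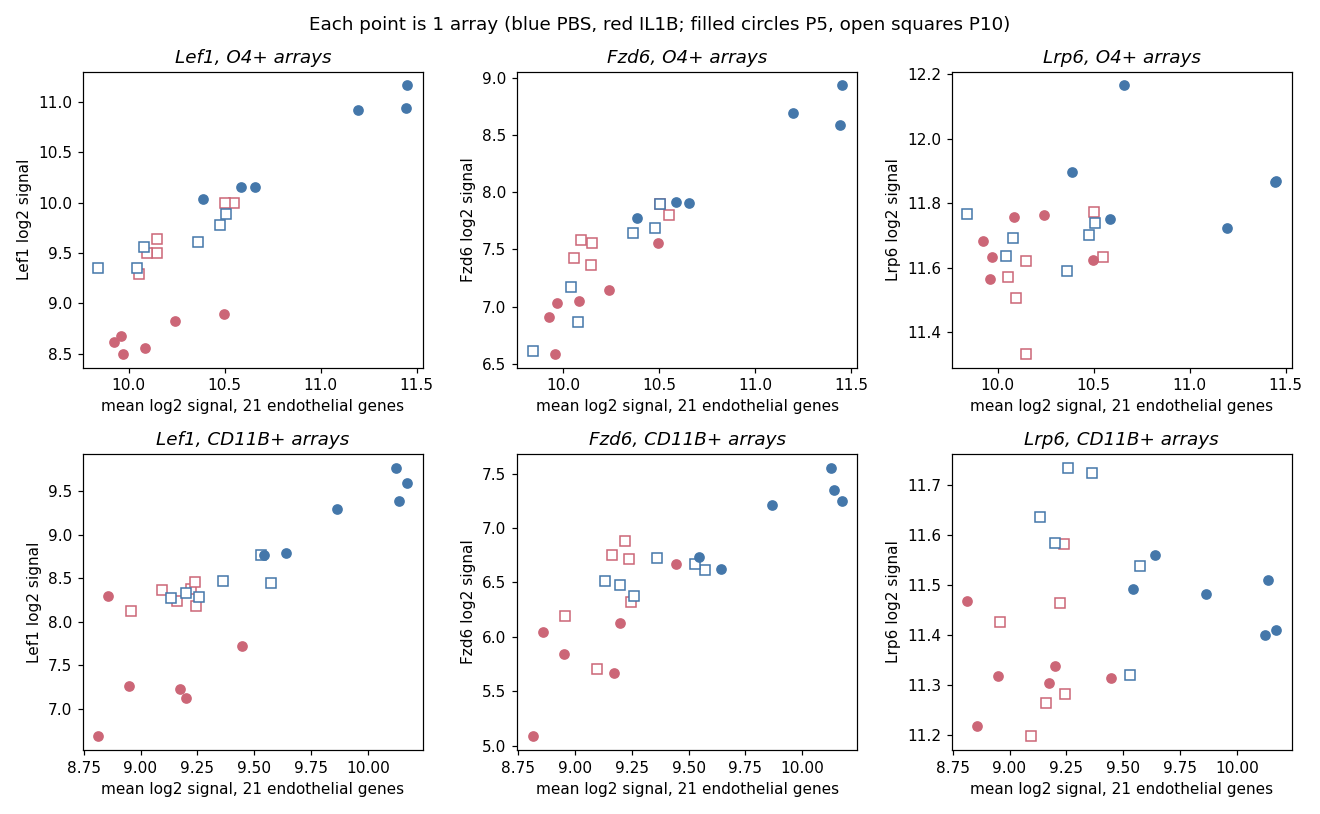
Log2 level of Lef1, Fzd6 and Lrp6 on each array against the mean log2 level of 21 endothelial genes on that array, with O4+ arrays in the upper row and CD11B+ arrays in the lower; filled circles are P5, open squares P10, blue PBS and red IL1B. Both axes were normalized over 48 arrays. Lef1 and Fzd6 are highest on the P5 PBS arrays with the highest endothelial means, and the 6 O4+ P5 IL1B arrays lie between 8.497 and 8.89 for Lef1.

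At P10, 5 days after the injections ended, 0 of the 10 genes were called in O4+ cells by limma, and 0 by the methods' equal-variance test, against 2.49% of all probes higher and 1.42% lower. At an unadjusted p under 0.05 there were 2, Nkd1 and Tcf7l2, against 13264 of the 55681 probes. Lef1 now ranged from 9.55 through 9.77 to 10.05 with PBS and from 9.49 through 9.75 to 10.15 with IL1B. The groups covered the same range, and the difference was 0.06 (adjusted p = 0.831). Fzd6 (0.29, adjusted p = 0.461) and Nkd1 (-0.27, adjusted p = 0.121) did not pass either. Tcf7l2 was the member with the smallest adjusted p. It ranged from 10.30 through 10.45 to 10.70 in PBS and from 9.99 through 10.10 to 10.17 in IL1B arrays. The groups did not overlap and the difference was -0.40 ± 0.07 (SE; adjusted p = 0.00595), but at -1.27-fold it missed the fold threshold. Its second probe gave -0.59 (adjusted p = 0.0435) and its dimmest -0.45 (adjusted p = 0.519). The endothelial list had 0 of 21 genes called and a median change of 0.03, and its mean ran from 9.841 to 10.505 in PBS and from 10.054 to 10.55 in IL1B arrays. Of the 8 myelin genes, 3 were called lower at this age.

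**Figure D3:**
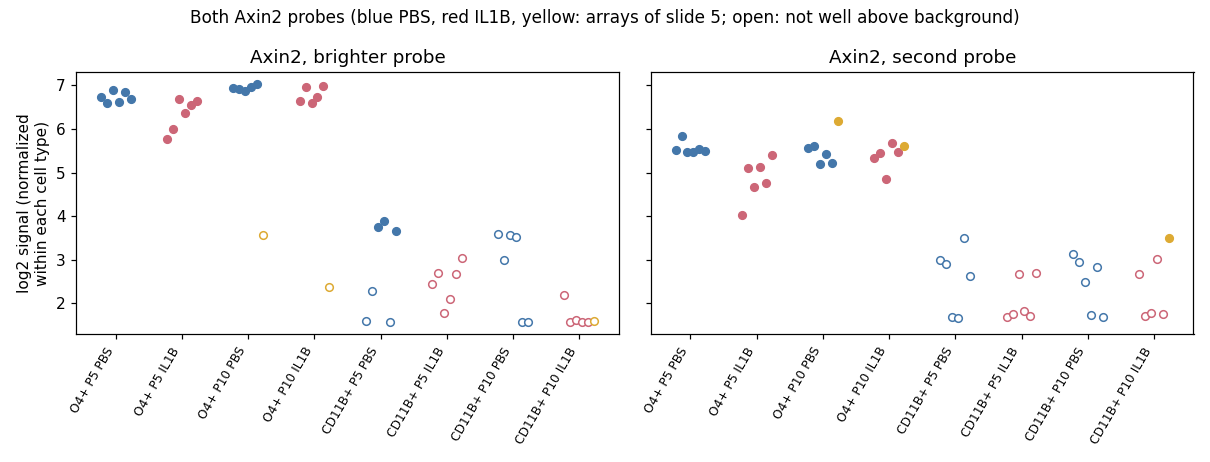
Log2 signal of the brighter and the second Axin2 probe on each array by group, normalized within each cell type; yellow points are arrays of slide 5 and open points arrays not well above background. On slide 5 the 2 O4+ arrays read 3.57 and 2.38 by the brighter probe and 6.19 and 5.60 by the second.

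Axin2 at P10 in O4+ cells could not be read cleanly by its brighter probe. In O4+ P10 PBS 5 arrays lay between 6.87 and 7.04 and replicate 6 at 3.57, and in O4+ P10 IL1B 5 arrays lay between 6.60 and 6.98 and replicate 6 at 2.38. Both low arrays were on slide 5, and the second Axin2 probe read 6.19 and 5.60 there, within or above the rest of its group. The difference of -0.33 ± 0.87 (SE; adjusted p = 0.853) therefore has a wide error. By the second probe the arrays ran from 5.20 to 6.19 in PBS and from 4.85 to 5.67 in IL1B, and the groups overlapped.

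The same comparison in CD11B+ cells at P5 gave 4 called genes, all lower: Lef1, Nkd1, Fzd4 and Fzd6. Over all probes 5.25% were lower and 4.05% higher. The median was -0.33 for the members and -0.01 for all probes. Lef1 ran from 8.55 through 9.15 to 9.60 in PBS and from 6.42 through 6.98 to 8.06 in IL1B arrays. The groups did not overlap, and the change was -1.94 ± 0.28 (SE; -4.47-fold; adjusted p = 0.000363). The second Lef1 probe changed by -2.49 ± 0.29 (adjusted p = 8.37e-05). Nkd1 ran from 8.00 through 8.34 to 9.29 and from 6.28 through 6.59 to 7.15. That is a change of -1.77 ± 0.22 (SE; -3.36-fold; adjusted p = 0.00015) with no overlap.

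Fzd4 showed the smallest adjusted p of the members. Its arrays ran from 8.997 through 9.10 to 9.25 in PBS and from 7.61 through 7.80 to 8.07 in IL1B. The spread within each group was small beside the gap, and the change was -1.31 ± 0.09 (SE; -2.47-fold; adjusted p = 1.35e-06). Fzd6 ran from 6.36 through 6.97 to 7.30 and from 4.83 through 5.67 to 6.41. Its change was -1.22 ± 0.25 (SE; -2.46-fold; adjusted p = 0.00403), and the highest IL1B array lay just above the lowest PBS array. With slide as a fixed block its adjusted p was 0.0661. Ctnnb1 changed by -0.33 ± 0.06 (SE; adjusted p = 0.00291) without overlap, under the fold threshold. Lrp6 (-0.16), Lrp5 (0.15), Tcf7l2 (0.15) and Axin1 (-0.09) had adjusted p of 0.0504, 0.176, 0.36 and 0.291. Axin2 gave -0.33 (adjusted p = 0.67), with 0 of 6 IL1B and 3 of 6 PBS arrays well above background.

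The 4 calls were also made without the arrays that stood apart. PBS replicate 5 had the highest Lef1 (9.60), Nkd1 (9.29) and Fzd6 (7.30) of its group, and also a list mean of 10.10 for astrocyte genes where the other 5 ran from 7.77 to 8.60. Without that array and IL1B replicate 3 the changes were -2.02 for Lef1 (adjusted p = 0.000168), -1.52 for Nkd1 (adjusted p = 0.000115), -1.27 for Fzd4 (adjusted p = 1.24e-05) and -1.16 for Fzd6 (adjusted p = 0.0134). The slide that held both treatments had 4 IL1B arrays and only 1 PBS array. It gave the same direction for all 4 genes, with -2.60 for Lef1, -2.01 for Nkd1, -1.58 for Fzd6 and -1.21 for Fzd4. Endothelial genes were lower here as well: 15 of 21 were called lower and 1 (Ly6c1, 2.37) higher, with a median of -0.95, Sox18 at -2.75 and Egfl7 at -1.95. The list mean ran from 9.544 to 10.174 in PBS and from 8.814 to 9.446 in IL1B arrays. Of the mural markers 3 of 8 were lower and 1 higher, all 9 neutrophil and monocyte markers were higher (9.36 to 10.486 in PBS, 12.635 to 13.444 in IL1B) and 5 of 14 microglial markers were lower (15.592 to 15.739 in PBS, 15.332 to 15.593 in IL1B). Oligodendrocyte genes present in the CD11B+ fraction were lower as well. The list means ran from 9.973 to 10.751 in PBS and 8.957 to 9.852 in IL1B for the lineage genes, and from 10.273 to 11.368 and 9.962 to 10.232 for the progenitor genes, with no overlap. Of these, Gpr17 (-1.11) and Sox10 (-0.80), 2 of 5 lineage genes, and Bmp4 (-0.79), 1 of 4 progenitor genes, were called. The part of all these lists in the lower Wnt genes was not tested.

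At P10 a single member was called in CD11B+ cells, Fzd4, against 1.08% of all probes lower and 1.09% higher. Its arrays ran from 9.40 through 9.87 to 10.06 in PBS and from 9.08 through 9.15 to 9.25 in IL1B. The groups did not overlap. The change was -0.63 ± 0.10 (SE; -1.65-fold; adjusted p = 0.0149), and the one slide with both treatments gave -0.50 (adjusted p = 0.372 with slide as a fixed block). Without CD11B+ P10 PBS replicate 6 the count was 2. Lef1 (-0.14, adjusted p = 0.423), Fzd6 (-0.13, adjusted p = 0.705), Nkd1 (-0.34, adjusted p = 0.102) and Ctnnb1 (-0.18, adjusted p = 0.0571) were not called. Lrp6 (-0.23, adjusted p = 0.145), Axin1 (0.16, adjusted p = 0.126), Tcf7l2 (-0.07, adjusted p = 0.541) and Lrp5 (-0.01, adjusted p = 0.928) were not called either, and Axin2 was well above background on 0 of the 12 arrays. Of the endothelial genes 0 of 21 were called here, and the list median was -0.20. Gpr17 (-0.62) and Bmp4 (-0.93), 1 of 5 lineage and 1 of 4 progenitor genes, were called lower, and their part was not tested.

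**Figure D4:**
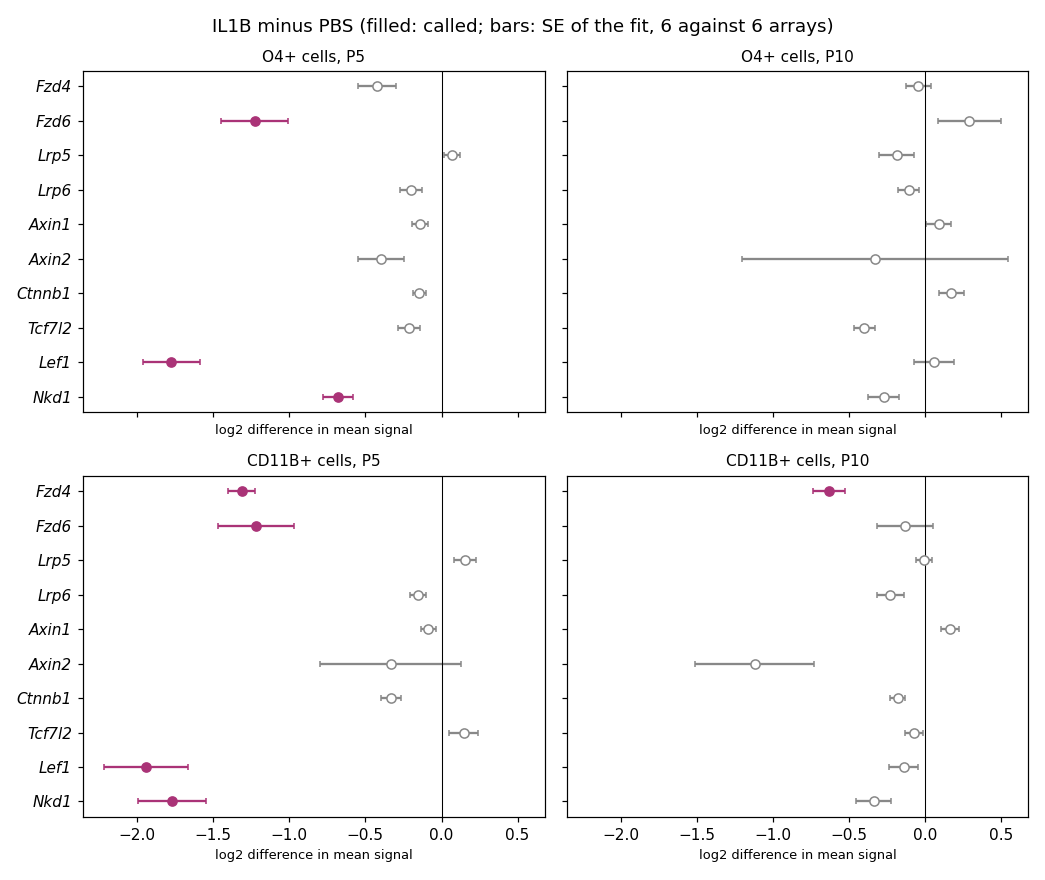
Log2 change of each of the 10 genes after IL1B in O4+ and CD11B+ cells at P5 and P10; bars are standard errors, filled points are called genes and the vertical line marks no change. The filled points are all to the left: 3 in O4+ P5, none in O4+ P10, 4 in CD11B+ P5 and 1 in CD11B+ P10.

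Whether the response differed between ages was tested directly, as the P10 difference minus the P5 difference in one model of the 24 arrays of a cell type, with the adjusted p as the only threshold. In O4+ cells 3 members passed, all with a less negative or a positive difference at P10: Lef1 by 1.83 ± 0.24 (adjusted p = 2.27e-05), Fzd6 by 1.52 ± 0.31 (adjusted p = 0.00223) and Ctnnb1 by 0.32 ± 0.09 (adjusted p = 0.0276). Ctnnb1 lost this call under 75th percentile scaling (0.17, adjusted p = 0.269) and in the deposited value table (0.28, adjusted p = 0.074). Over all probes 7.83% passed on that side and 5.32% on the other. Nkd1 had 0.41 (adjusted p = 0.0711). Without the arrays of slide 5 the count was 5. In CD11B+ cells 5 passed on that side, where 10.5% of all probes did (6.3% on the other): Lef1 by 1.80 ± 0.30 (adjusted p = 0.000173), Nkd1 by 1.43 ± 0.26 (adjusted p = 0.00036), Fzd6 by 1.09 ± 0.32 (adjusted p = 0.0193), Fzd4 by 0.68 ± 0.14 (adjusted p = 0.00127) and Axin1 by 0.25 ± 0.08 (adjusted p = 0.0312). With slide as a fixed block Fzd6 (adjusted p = 0.0707), Fzd4 (adjusted p = 0.138) and Axin1 (adjusted p = 0.754) did not pass, which left 2. The second Nkd1 probe gave 1.54 (adjusted p = 0.0543). The dimmest Tcf7l2 probe passed on the other side (-1.34 ± 0.36, adjusted p = 0.012), while the brightest (-0.22, adjusted p = 0.226) and second (-0.15, adjusted p = 0.635) did not pass. The endothelial list had 10 and 11 of its 21 genes passing on the same side in O4+ and CD11B+ cells.

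The cell types were compared in the same way. At P5 the drop of Fzd4 was 0.82 ± 0.16 smaller in O4+ than in CD11B+ cells (adjusted p = 0.00112) and that of Nkd1 1.00 ± 0.25 smaller (adjusted p = 0.00886), among 6.93% of all probes on that side and 3.78% on the other. With slide as a fixed block neither passed (Fzd4 0.78, adjusted p = 0.087; Nkd1 0.93, adjusted p = 0.167), and Nkd1 was 0.59 (adjusted p = 0.0601) after normexp background correction and 0.82 (adjusted p = 0.0899) by the mean of its probes. The second Nkd1 probe gave 0.64 ± 0.46 (adjusted p = 0.475), with 0 of 6 CD11B+ P5 IL1B arrays well above background. Tcf7l2 missed at its brightest probe (-0.36 ± 0.12, adjusted p = 0.0566), while its other 2 probes passed on the other side. They gave -0.63 (adjusted p = 0.00798) and -1.05 (adjusted p = 0.0355). For Lef1 the estimated difference was 0.0029 ± 0.34 (adjusted p = 0.998) and for Fzd6 -0.04 ± 0.34, and errors of this size do not show that the responses were alike. At P10 Fzd4 (0.55 ± 0.13, adjusted p = 0.0141) and Ctnnb1 (0.36 ± 0.10, adjusted p = 0.0307) passed on that side, where 3.92% of probes did. Tcf7l2 passed on the other (-0.36 ± 0.10, adjusted p = 0.0229, with 3.65% of probes). With slide as a fixed block 0 of these 3 passed (adjusted p = 0.139, 0.0716 and 0.103), Ctnnb1 also lost its call under 75th percentile scaling (0.15, adjusted p = 0.309) and in the deposited value table (0.11, adjusted p = 0.531), and Tcf7l2 by the mean of its probes (-0.31, adjusted p = 0.114).

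The PBS arrays gave the change with age without IL1B. In O4+ cells Tcf7l2 and Nkd1 rose from P5 to P10 and Lef1 and Fzd6 fell, among 7.85% of all probes higher and 8.96% lower. Tcf7l2, which is high in oligodendrocytes starting to myelinate, went from a range of 9.63 to 9.88 (median 9.68) to one of 10.30 to 10.70 (median 10.45), with no overlap. That is 0.75 ± 0.08 (SE; 1.71-fold; adjusted p = 1.28e-05), and its second probe gave 1.19. Nkd1 rose by 0.55 ± 0.11 (SE; 1.59-fold; adjusted p = 0.002). Its second probe rose by 0.55 (adjusted p = 0.00829) but stayed under the fold threshold at 1.36-fold. Lef1 fell by 0.91 ± 0.20 (SE; adjusted p = 0.0034) without overlap. The second Lef1 probe changed by -0.68 ± 0.22 (adjusted p = 0.0354), and there the groups overlapped. Fzd6 fell by 0.97 ± 0.27 (SE; adjusted p = 0.0145). Leaving out O4+ P5 PBS replicate 2, 4 or 5 took Lef1 and Fzd6 under the fold threshold, which left 2 calls. Ctnnb1 was -0.49 (adjusted p = 0.000441) without overlap but under that threshold, as were Axin1 (-0.25, adjusted p = 0.0186) and Fzd4 (-0.37, adjusted p = 0.0426). Of 8 myelin genes 7 rose, with a list median of 2.34, and 12 of 21 endothelial genes fell, with a median of -0.73.

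In CD11B+ cells Fzd4 rose with age and Lef1 and Fzd6 fell, among 4.65% of probes higher and 3.61% lower. Fzd4 went from 8.997 to 9.25 up to 9.40 to 10.06, a rise of 0.67 ± 0.11 (SE; 1.71-fold; adjusted p = 0.000943). The P5 and P10 groups did not overlap. Lef1 fell by 0.88 ± 0.18 (SE; adjusted p = 0.005) and Fzd6 by 0.56 ± 0.15 (SE; adjusted p = 0.0213), and 14 of 21 endothelial genes fell with them (median -0.67). With slide as a random block Fzd6 had adjusted p of 0.0883 in O4+ and 0.0632 in CD11B+ cells. In CD11B+ cells Lef1 lost its call with scan as a random block (adjusted p = 0.0726). Fzd6 was not called there in 5 of 24 alternatives (adjusted p up to 0.167). The age and IL1B comparisons at P5 share the same P5 PBS arrays. For Lef1 in O4+ cells the P5 IL1B arrays, at 8.73 to 9.11, were lower than the P10 PBS arrays, at 9.55 to 10.05.

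Between the fractions of PBS pups, 5 of the 10 members were called higher in O4+ cells at each age. For these comparisons the levels were normalized over all 48 arrays. At P5 Axin2, Nkd1, Lef1, Fzd6 and Ctnnb1 were higher in O4+ cells and Lrp5 lower, among 19.8% of probes higher and 21.8% lower. At P10 Axin2, Nkd1, Lef1, Fzd6 and Tcf7l2 were higher and Fzd4 and Axin1 lower, among 22.2% and 20.2%. So large a part of all probes differed that 6 or 7 calls out of 10 are a description of where these genes are found.

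Axin2 ran from 6.33 to 6.62 in O4+ and from 1.56 to 4.12 in CD11B+ arrays at P5, where it was well above background on 6 of 6 and 3 of 6 arrays. Against the lowest signal well above background on each array, or the probe's own where higher, it was at least 5.002-fold higher in O4+ cells. No such bound was tested. The fitted limma difference, which took the dim CD11B+ values as measured, was 3.53 (adjusted p = 3.25e-05). Under the alternatives that difference ran from 1.09 to 3.88 and stayed called. The second probe was not well above background on any CD11B+ array of that group and was at least 2.44-fold higher in O4+ cells. At P10 the brighter probe was at least 4.30-fold and the second at least 2.38-fold higher. Nkd1 was 1.97 higher at P5 (4.06-fold, adjusted p = 3.16e-06) and 2.69 higher at P10 (adjusted p = 1.07e-09), with no overlap at either age. Lef1 ran from 10.03 to 11.16 in O4+ and from 8.77 to 9.77 in CD11B+ cells at P5, a difference of 1.29 (adjusted p = 0.000731), and was 1.16 higher at P10 (adjusted p = 2.19e-06). Fzd6 was 1.18 higher at P5 (adjusted p = 0.000988) and 0.75 at P10 (adjusted p = 0.00778). A single slide held both P5 fractions of PBS pups, with 2 O4+ arrays and 1 CD11B+ array. On the slide shared by both P5 fractions the differences were smaller for Lef1 (0.50), Fzd6 (0.59) and Nkd1 (1.60), and with slide as a block the first 2 had adjusted p of 0.41 and 0.333. Endothelial genes were also higher in the O4+ fraction, with 16 of 21 called at P5 and a median of 1.13, and 14 of 21 at P10 with a median of 1.00.

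The receptors divided at P10: Fzd4 was 1.26 lower in O4+ than in CD11B+ cells (a difference of -1.26, -2.58-fold, adjusted p = 1.45e-06), where Fzd6 was higher. Lrp5 differed by -0.71 at P5 (-1.70-fold, adjusted p = 1.69e-07) and by -0.61 at P10, under the fold threshold. Tcf7l2 depended on the probe at P5. Its brightest probe gave -0.27 while the other 2 gave 0.62 and 1.58 and were called, and at P10 the brightest gave 0.74 (1.61-fold, adjusted p = 2.05e-06). Ctnnb1 at P5, 0.73 higher (1.68-fold, adjusted p = 1.43e-08), was 0.19 under 75th percentile scaling and 0.09 in the deposited value table (adjusted p = 0.158). Those 2 scalings moved the median of all probes in this comparison to -0.345 and -0.45.

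**Figure D5:**
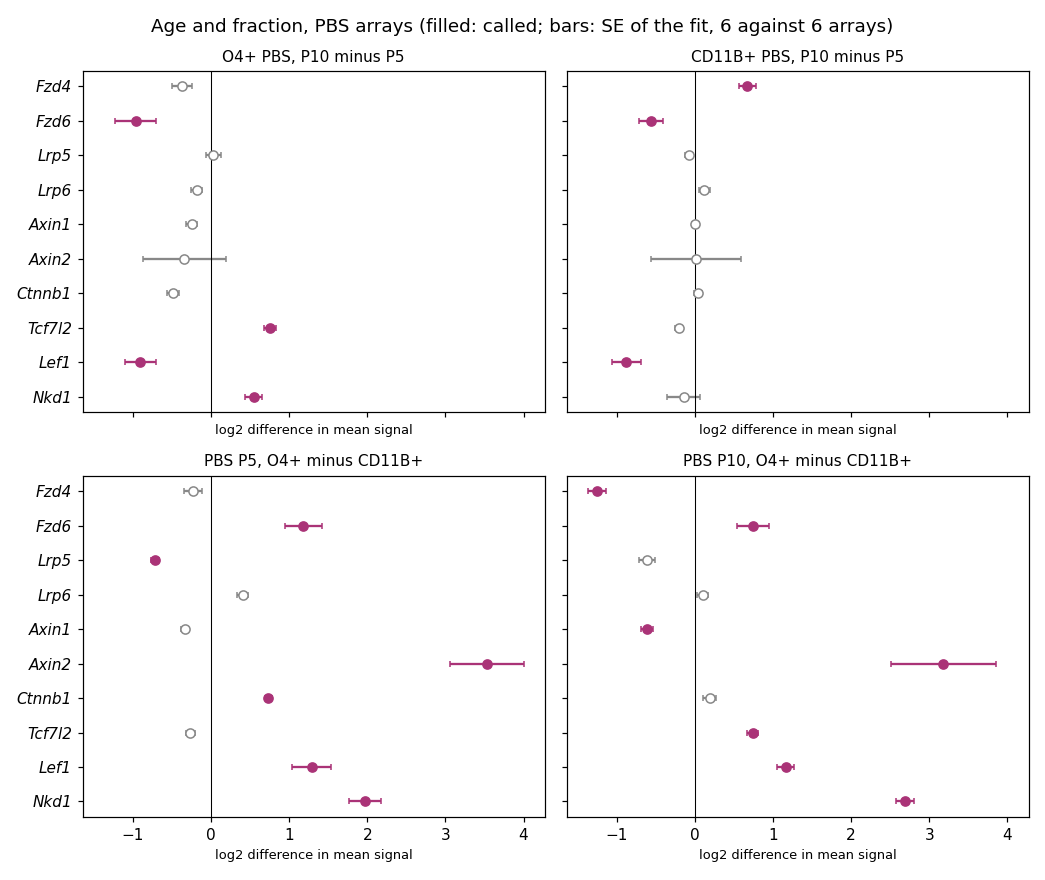
Log2 difference of each of the 10 genes between P10 and P5 PBS arrays in each cell type, and between O4+ and CD11B+ PBS arrays at each age; bars are standard errors and filled points called genes. Tcf7l2 and Nkd1 rise with age in O4+ cells while Lef1 and Fzd6 fall, and Nkd1 is higher in O4+ cells at both ages. Axin2 is plotted as fitted, against CD11B+ arrays of which 3 of 6 at P5 and 0 of 6 at P10 were well above background.

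The wider pathway gives the setting of these genes. Of 94 further ligands, receptors, inhibitors, transducers and targets listed by role, 92 were on the array. In O4+ cells at P5, 5 were called lower after IL1B and 0 higher (1.49% and 3.43% over all probes), with a median of -0.12. They were the secreted inhibitors Dkk2 (-1.08, adjusted p = 0.000163) and Wif1 (-0.99, adjusted p = 0.000233), the membrane inhibitor Apcdd1 (-0.76, adjusted p = 0.0202), the nuclear factor Tcf7 (-0.91, adjusted p = 0.000698), and Gpr124 (-0.77, adjusted p = 0.012), a co-receptor for Wnt7 ligands in brain vessels. Of the 26 ligands 0 were called. At P10 8 were higher and 2 lower (2.49% and 1.42% over all probes). Wif1 was now higher (0.89, adjusted p = 0.0187), as were the Frizzled-related inhibitors Sfrp4 (0.93) and Sfrp2 (0.82), the receptors Ror2 (0.91) and Lgr5 (0.73), and Ccnd1, a cyclin and common target (0.73, adjusted p = 0.00405). The ligand Wnt3 was lower (-0.86, adjusted p = 0.00175), and so was Daam2 (-0.47). Markers of other cells rose in these arrays. Of 9 neutrophil and monocyte genes 6 were called higher, among them S100a9 (3.81) and S100a8 (2.82). Their list means were 3.373 to 4.62 in PBS and 4.989 to 6.106 in IL1B arrays. Of 14 microglial genes 4 were called higher (12.292 to 12.974 and 12.575 to 13.209). Of 8 astrocyte genes 4 were called higher, among them Aqp4 (0.73), Sox9 (0.68) and Aldh1l1 (0.65). Their list means were 8.914 to 9.358 and 9.483 to 9.936. The fraction's own progenitor genes rose as well, with 2 of 4 called, Pdgfra (0.94) and Cspg4 (0.76). Their list means were 14.536 to 15.112 and 15.062 to 15.624. The part of all these lists was not tested. The P10 minus P5 difference itself passed for 22 of these genes upward, Wif1 among them (1.88), and for 3 downward (7.83% and 5.32% over all probes).

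In CD11B+ cells at P5 13 of the 92 were lower and 0 higher (5.25% and 4.05% over all probes), with a median of -0.18. Of the 17 receptors and co-receptors 7 were lower, among them Ror2 (-1.41), Fzd3 (-1.34) and Fzd10 (-1.21). Of the 17 inhibitors 3 were lower, Dkk2 (-2.49, adjusted p = 3.72e-05), Apcdd1 (-1.31) and Rnf43 (-1.08), a ligase that removes Frizzled from the membrane. Tcf7 (-1.35, adjusted p = 0.00226) and the ligand Wnt7b (-1.80, adjusted p = 0.0155) were lower as well. At P10 none of the 92 was called. With age in O4+ cells 27 fell and 8 rose, against 8.96% and 7.85% of all probes, with Wif1 at -2.10, Ror2 at -1.79, the receptor Fzd7 at -1.42 and Ccnd1 at -1.03, against Wnt3 at 3.15 and Daam2 at 2.12. In CD11B+ cells, where 3.61% of all probes fell and 4.65% rose, 6 fell with age, Wnt10a (-2.27) and Apcdd1 (-1.38) the furthest, and 2 rose, Rnf43 (0.88) and the corepressor Tle3 (0.61). Between fractions 47 were higher in O4+ cells at each age and 13 at P5 and 15 at P10 lower, against 19.8% and 21.8% of all probes at P5 and 22.2% and 20.2% at P10. Lgr5 was 4.64, Rnf43 4.28 and Sfrp2 3.99 higher at P5. The target Myc was lower in O4+ cells, at -1.45 at P5 and -2.36 at P10, as at P10 were Fzd7 (-4.26) and the R-spondin Rspo1 (-3.14).

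The promoters of the members were read for the letters that TCF/LEF factors bind, since Lef1 and Tcf7l2 are both such factors and both moved. RefSeq windows of 250 bases before each start site were at hand for 6 of the 10 genes (GRCm38.p6). Each of 4 strings was searched on both strands: AACAAAG was present in 5.03% of the 32851 windows of the same length in the table, ATCAAAG in 3.21%, TACAAAG in 3.2% and TTCAAAG in 4.46%. At least one was in 14.8%, and the hits below overlap no other. Among the members' windows 1 of the Lef1 start sites, at chr3:131156044-131156293 on the plus strand, and 1 of the Tcf7l2 start sites, at chr19:55895071-55895320 on the plus strand, held one, in capitals here.
Lef1: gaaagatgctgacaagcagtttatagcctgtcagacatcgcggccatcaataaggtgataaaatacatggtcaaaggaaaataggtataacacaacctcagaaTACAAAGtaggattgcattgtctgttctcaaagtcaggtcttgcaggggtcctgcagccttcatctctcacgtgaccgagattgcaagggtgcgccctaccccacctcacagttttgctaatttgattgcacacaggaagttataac
Tcf7l2: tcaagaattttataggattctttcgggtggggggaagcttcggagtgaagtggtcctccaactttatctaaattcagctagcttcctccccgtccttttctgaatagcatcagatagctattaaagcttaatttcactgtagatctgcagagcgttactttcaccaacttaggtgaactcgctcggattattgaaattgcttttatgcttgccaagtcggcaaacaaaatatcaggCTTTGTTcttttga
In Lef1 the string is TACAAAG, with its opening base 147 bases before the start site; in Tcf7l2 it is AACAAAG on the opposite strand, 14 bases before. Each gene has other start sites whose windows held none of the 4 strings, and a match of 7 letters describes the window and no more.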

How the data were processed

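RNA of each sorted fraction was hybridised to 1-colour Agilent mouse arrays, 48 in all, 6 per group, and groups were taken from the sample labels. The authors deposited scanner output of Feature Extraction (version 10.7.3.1, mm9 probe positions, per the file headers), which holds mean and background intensity, the background-subtracted processed intensity used here, and flags for spots not well above background or not uniform. They also deposited a table whose values, once median-scaled, were a ratio scale of the same processed intensities (largest deviation 1.86e-05 on the log2 scale); it served as an alternative. Control spots were left out, 278 nonuniform spots were treated as missing, and log2 intensity was brought to one distribution by quantile normalization, across 24 arrays within each cell type or across 48 for contrasts between cell types, and repeated spots were averaged. No pseudocount or dim-probe filter was used in the main setting.

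Tests were made with limma 3.58.1 in R 4.3.3 (lmFit and eBayes, Benjamini-Hochberg over all 55681 probes), in place of the methods' equal-variance test, which was an alternative with the same thresholds. A gene was read by its brightest probe over 48 arrays. Each comparison used only its own 12 arrays, and differences between responses used 24. The number of arrays limits the precision. No 2 arrays were identical, and arrays of one group correlated at 0.962 or more. Between 54.1% and 66.4% of probes per array were well above background, and 0 spots were saturated. Arrays are separate samples by their labels, several brains were pooled per sample by the methods, and p-values measure the spread between these samples. Replicate numbers were checked as pairs by the correlation of deviations from the group means. Every pair exceeded 0.1 for O4+ with CD11B+ cells of IL1B pups at P10 (0.267 to 0.716), groups that share animals by the methods. Those groups enter the P10 comparison of responses between cell types. The fractions of PBS pups, compared directly, also share animals by the methods, and 5 of 6 pairs exceeded 0.1 at each age. No groups compared directly had all 6 pairs over 0.1. The main fits had no block, and the fit with the replicate number as a block was an alternative.

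The members and the lists were chosen with earlier results of these data known. Named are the 10 members, per list up to 3 called pathway or marker genes with the largest change, fixed defining markers, and the 5 genes nearest in pattern to Axin2, Lef1, Tcf7l2 and Fzd6, of which one is not reported here. Alternatives were 75th percentile scaling, normexp background correction, the deposited table, a dim-probe filter, the mean of a gene's probes, no fold threshold, other groupings of arrays in the fit, slide, scan or replicate number as a block, and leaving out each array. Leaving out slide 5, or CD11B+ P5 IL1B replicate 3 with CD11B+ P5 PBS replicate 5, was added after seeing the data. The procedure was tested on simulated data. Exon and UTR annotation of the probes in mm9 was not used here.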

Additional observations from a re-analysis of the deposited data

Results flagged for a closer look

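Of 80 gene-by-group sets of 6 arrays tested with Dixon's ratio of gap to range, 7 had an end array past the critical value, where chance alone flags about 1 in 20. Axin2 was flagged in O4+ P10 PBS (ratio 0.953, replicate 6 at 3.57 against a nearest array of 6.87) and in O4+ P10 IL1B (0.918, replicate 6 at 2.38 against 6.60), both on slide 5. Its second probe read 6.19 and 5.60 on those arrays. Axin2 in CD11B+ P10 IL1B was also flagged (0.925, replicate 1 at 2.18 against 1.61), in a group where 0 of 6 arrays were well above background. Ctnnb1 was flagged in O4+ P10 PBS (0.748, replicate 6 of slide 5 at 12.45 against 12.81). Lrp5 was flagged in O4+ P5 PBS (0.778, replicate 2 at 10.24 against 10.08). Nkd1 was flagged in O4+ P10 PBS (0.681, replicate 1 at 10.97 against 11.26) and in CD11B+ P10 IL1B (0.799, replicate 4 at 8.27 against 7.92).

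The IL1B response differed between ages in O4+ cells for Lef1 (1.83 on the log2 scale, P10 minus P5), Fzd6 (1.52) and Ctnnb1 (0.32). In CD11B+ cells it differed for Lef1 (1.80), Nkd1 (1.43), Fzd6 (1.09), Fzd4 (0.68) and Axin1 (0.25). Between cell types, O4+ minus CD11B+, it differed at P5 for Nkd1 (1.00) and Fzd4 (0.82) and at P10 for Fzd4 (0.55), Ctnnb1 (0.36) and Tcf7l2 (-0.36). Each is the interaction term of limma with an adjusted p under 0.05.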

How the results depend on the processing

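Of 41 called results on the members, 625 values under alternatives held 585 on the same side of the thresholds with the same direction, 40 with the same direction but not called, and 0 reversed. The cause of each change was not tested. The share of all probes that pass without a fold threshold was not counted. At an unadjusted p under 0.05 (limma) there were 16347, 13264 and 22901 of the 55681 probes in the comparisons named next. With no fold threshold the calls were 5 after IL1B in O4+ cells at P5, 1 in O4+ cells at P10, and 7 for age in O4+ cells. With slide as a fixed block they were 0 after IL1B in CD11B+ cells at P10, 2 for the difference between ages in CD11B+ cells, and 0 for the difference between cell types at P5 and at P10. With scan as a random block age in CD11B+ cells had 1 call, and with scan as a fixed block the difference between ages in O4+ cells had 5, as it did without the arrays of slide 5. Leaving out each array gave 3 to 3 and 0 to 0 calls after IL1B in O4+ cells at P5 and P10, 4 to 4 and 1 to 2 in CD11B+ cells, 2 to 4 for age in O4+ and 2 to 3 in CD11B+ cells (the 2 calls came without O4+ P5 PBS replicate 2, 4 or 5, and, in CD11B+ P10, without PBS replicate 6); it was not run for the comparisons of cell types or of responses. Without CD11B+ P5 IL1B replicate 3 and CD11B+ P5 PBS replicate 5 the count was 3 for the P5 difference between cell types. With the replicate number as a block, the calls were 3, 0, 4 and 1 after IL1B (O4+ P5 and P10, CD11B+ P5 and P10), 4 and 3 for age, 6 and 7 between fractions, and 4, 4, 2 and 3 for the differences in response. Axin1 lost its call for the difference between ages in CD11B+ cells (0.25, adjusted p = 0.0528). PBS and IL1B pups are different animals, as are P5 and P10 pups. Outside the comparisons between fractions, this block therefore ties arrays of different animals and is no check of shared animals. Same-numbered O4+ and CD11B+ arrays deviated together in 6 of 6 pairs of IL1B pups at P10 (0.267 to 0.716) and in 5 of 6 pairs of PBS pups at each age (0.041 to 0.364 at P5, -0.056 to 0.354 at P10). In IL1B pups at P5 they did so in only 2 of 6 pairs (-0.029 to 0.226). For O4+ P5 PBS and IL1B it was 5 of 6 (0.087 to 0.31). Dim Axin2 in CD11B+ cells sets the limit of signal over background. Scaling to the 75th percentile and the deposited table moved the median of all probes the furthest, besides PBS P5 fractions, for age in O4+ cells (to 0.215 and 0.216) and after IL1B in O4+ cells at P10 (to -0.189 and -0.169).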

Other observations

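Over the 24 O4+ arrays the genes with the pattern most like Tcf7l2 were Sertad2, Ttyh2, Coasy, Itgb7 and Strn, all with Pearson's r between 0.973 and 0.976. The neighbours of Axin2 by its brighter probe depended on the 2 slide 5 arrays: Pkib went from 0.982 to 0.807 without them (22 arrays), Commd2 from 0.964 to 0.642, Leo1 from 0.959 to 0.498 and Uchl3 from 0.958 to 0.586.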
